A study of Mus musculus with 38 samples.

Results

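Messenger RNA of Th2 cells that lacked the transcription factor STAT6 was compared with that of wild-type (WT) Th2 cells when both genotypes carried a retrovirus encoding GATA3. The comparison rests on 1 RNA-seq library a side out of the 14 RNA libraries and 38 samples of the series. Its members are the genes that reached at least 3 FPKM (fragments scaled to transcript length and library size) in either library. Of 23700 table entries 8987 did so, and 8884 remained after entries with a failed Cufflinks estimate were left out. The last gene inside this limit was Phlpp1, at 3.001 FPKM in STAT6 KO and 2.643 FPKM in WT cells, and the first outside was Cfp, at 2.999 and 2.562 FPKM in the same order of genotypes. The STAT6 KO minus WT difference is given as a difference in log2(FPKM + 1), which understates the change of low genes.

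Th2 cells are CD4 helper T cells that make IL-4, IL-5 and IL-13 in responses to parasites and allergens. IL-4 binds a receptor that holds the IL-4Rα chain, the receptor activates STAT6, and STAT6 enters the nucleus and raises expression of Gata3, the gene of the lineage-defining factor GATA3, among many other genes. GATA3 binds the locus that holds the genes of IL-4, IL-13 and IL-5 and counteracts the Th1 programme, in which T-bet (gene Tbx21) directs production of interferon-γ.

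The series addressed how STAT proteins shape active enhancers in Th1 and Th2 cells and whether the lineage-defining factors restore what is lost without a STAT protein. All cells were naive CD4 T cells sorted from spleen and lymph nodes of C57BL/6J mice. The first library came from STAT6 KO (Stat6-/-) cells with the GATA3 vector and the second from WT cells with the GATA3 vector, both grown under Th2 conditions for 5 days. A second pair, STAT6 KO and WT cells with a control vector, was grown in the same way. Another pair, STAT6 KO and WT Th2 cells without vector, was cultured for 7 days and restimulated for 2 h through CD3 and CD28 with IL-4. For the vector cultures, per the labels' protocols, CD3 and CD28 were engaged for 16 h before the retrovirus by antibodies on the plate, each at 10 μg/mL, while an antibody at 10 μg/mL blocked interferon-γ. Medium with IL-4 (10 ng/mL) and the interferon-γ antibody followed for 2 days, and IL-2 (50 U/mL) with IL-4 for another 3 days. Thus the STAT6 KO cells were given IL-4 from transduction on, and the interferon-γ of the cultures was neutralised during the first days. The sources used here do not give whether the vector cultures were restimulated, whether transduced cells were sorted, which part of Stat6 the knockout lacks or how many mice were pooled. Each group of this comparison held 1 library, so no difference between the GATA3-vector libraries has a replicate check of its own. A model below also drew on Th1 libraries of WT and STAT4 KO cells. These were grown without vector for 7 days, or with a control or T-bet vector for 5 days, and restimulated for 2 h. An alternative fit added T-bet KO and further WT Th1 cells, grown for 7 days and restimulated for 2 h.

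The 2 libraries were estimated to hold 21900000 (STAT6 KO) and 22910000 (WT) fragments in genes, and the other 4 Th2 libraries 22180000 to 35240000. The upper bound that Cufflinks lists around a value lay at a median of 8.78% (STAT6 KO) and 8.64% (WT) above it for genes at 3 to 10 FPKM, and 2.28% and 2.13% above it at 100 FPKM or more. These bounds cover counting error in 1 library and no variation between cultures. The 8 CD4 T cell markers ranged from 39.0 to 190.9 FPKM in the STAT6 KO and from 25.4 to 138 FPKM in the WT library. None of the B cell, NK cell, CD8 T cell and erythroid markers reached 3 FPKM in either. Of 8 single-locus macrophage and dendritic cell markers Itgax, the gene of CD11c, did so (0.608 FPKM in STAT6 KO, 3.34 in WT; −1.43), and of 7 MHC class II markers 3 did, with a summed level over the 7 of 38.9 FPKM in STAT6 KO and 34.8 FPKM in WT cells. Of 11 mast cell and basophil markers 3 reached 3 FPKM: Hdc, the histamine-forming enzyme (102.9 FPKM in STAT6 KO, 262.6 in WT), Mcpt8, a basophil protease (42.7 and 59.2), and Cpa3, a mast cell protease (2.33 and 9.64). In the 4 libraries without the GATA3 vector Hdc had at most 0.580 FPKM and Mcpt8 at most 0.0941 FPKM. Cpa3 differed from them: it was lower past 2-fold in STAT6 KO than in WT cells without vector. There the 11 markers summed to 1.64 FPKM in STAT6 KO and 10.8 FPKM in WT cells. The part of such cells in the results was not tested. The defining receptor genes Fcer1a and Ms4a2 were listed at 0 in both GATA3-vector libraries. In bulk RNA, fewer cells of a type and less RNA per cell cannot be told apart.

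With GATA3 supplied to both genotypes, 339 genes (3.82% of those compared) were at least 2-fold higher in STAT6 KO cells and 167 (1.88%) at least 2-fold lower. These shares are the background for the counts per list in this pair. Past 4-fold there were 92 higher and 48 lower, and past 8-fold 29 and 22. The median difference over all 8884 genes was 0.06. For 483 of the 506 genes past 2-fold either way (5.7%), the Cufflinks intervals of the 2 libraries did not overlap. The genes that stood highest in STAT6 KO cells were mostly interferon-inducible, led by Iigp1, Gbp6 and Gbp2. Those that stood lowest included Gzma, Efna5, Tanc2, Steap3, Ecm1 and Il10. The type 2 cytokine genes were split: Il13 and Il5 were higher in STAT6 KO cells, Il4 was close, and Il10, Il6 and Il24 were lower.

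**Figure D1:**
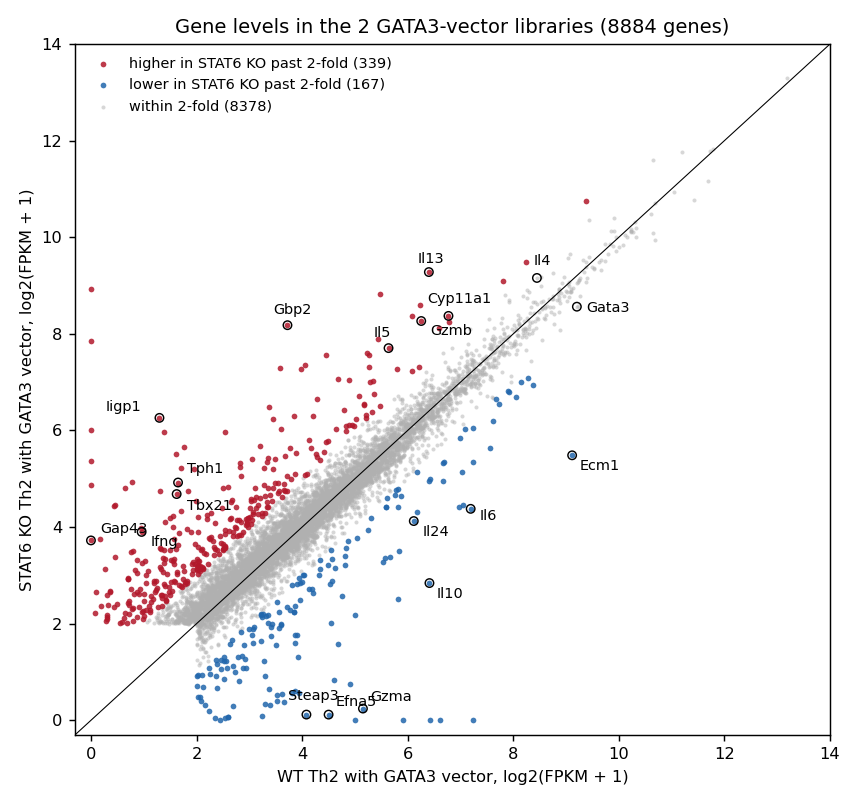
Level of each of 8884 genes in STAT6 KO (vertical axis) against WT Th2 cells (horizontal axis), both with the GATA3 vector, as log2(FPKM + 1); 1 point is 1 gene and the line marks equal levels. The 339 red genes were higher and the 167 blue genes lower in STAT6 KO cells past 2-fold; Gbp2, Iigp1 and Il13 lie far above the line and Ecm1, Gzma and Il10 far below it.

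The level of the supplied factor was not equal between the genotypes. Gata3 (mm9 chromosome 2, 9778705 to 9800227) had 376.9 FPKM in STAT6 KO and 588.9 FPKM in WT cells with the GATA3 vector. It had 29.7 FPKM in STAT6 KO and 95.7 FPKM in WT cells with the control vector, and 14.3 and 62.1 FPKM in STAT6 KO and WT cells without vector. Both GATA3-vector libraries thus lay above every other Th2 library, and the STAT6 KO library held 0.64 of the WT level. These values add RNA from the vector and from the cells' own gene, which the tables do not separate, and the part of the Gata3 difference in the results below was not tested. Stat6 (chromosome 10, 127080042 to 127098043) was at 23.3 FPKM in STAT6 KO and 48.0 FPKM in WT cells with the GATA3 vector. A transcript without the deleted part still counts toward this value, so it does not check the genotype. Il4ra, the IL-4 receptor chain, was at 67.4 FPKM in STAT6 KO and 78.3 FPKM in WT cells, a difference of −0.21, against −1.07 in the control-vector pair and −2.11 without vector.

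Among 13 type 2 cytokine genes, 3 were higher past 2-fold in STAT6 KO cells carrying the GATA3 vector and 3 were lower, with a median difference of 0.18. In the control-vector pair 0 were higher and 10 lower (median −2.09), and without vector 0 were higher and 9 lower (median −3.16). Of all genes compared, 3.34% were higher and 2.17% lower past 2-fold in the control-vector pair, and 3.89% and 5.21% without vector. Il13, a cytokine that drives mucus production, had 620 FPKM in STAT6 KO and 83.5 FPKM in WT cells with the GATA3 vector, a difference of 2.88. It had 15.3 and 38.9 FPKM in STAT6 KO and WT cells with the control vector, and 48.5 and 74.8 FPKM without vector. The STAT6 KO library with the GATA3 vector was therefore the highest of the 6, while STAT6 KO lay below WT in the other pairs.

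Il5, the growth factor of eosinophils, followed the same order. It had 207.6 FPKM in STAT6 KO and 48.8 FPKM in WT cells with the GATA3 vector (2.07), against 0.0993 and 15.4 FPKM with the control vector (−3.90) and 0.0656 and 4.53 FPKM without vector (−2.37). Il4 itself had 569.8 FPKM in STAT6 KO and 348.1 FPKM in WT cells with the GATA3 vector, a difference of 0.71, against 8.71 and 173.1 FPKM with the control vector and 20.5 and 513.2 FPKM without vector. STAT6 KO cells thus held the highest Il4 level of the 6 libraries with the GATA3 vector and the lowest levels without it. Areg, the gene of the growth factor amphiregulin, was also higher (716.7 FPKM in STAT6 KO, 302.4 in WT; 1.24).

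These 3 cytokine genes lie in 1 cluster on mm9 chromosome 11: Il4 at 53425963 to 53432167, Il13 at 53444825 to 53448204 and Il5 at 53534296 to 53538605. Rad50, a DNA repair gene between Il13 and Il5, was at 12.4 FPKM in STAT6 KO and 8.72 FPKM in WT cells with the GATA3 vector (0.47), within 2-fold in all 3 pairs. Irf1, an interferon-inducible transcription factor gene on the far side of Il5, was at 235.7 FPKM in STAT6 KO and 42.1 FPKM in WT cells (2.46). Unlike Il4, Il13 and Il5, it was also higher in STAT6 KO cells with the control vector (2.12) and without vector (3.135).

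Another group of cytokine genes stayed below WT in STAT6 KO cells even with the GATA3 vector. Il10, an anti-inflammatory cytokine, had 6.16 FPKM in STAT6 KO and 84.1 FPKM in WT cells with the GATA3 vector (−3.57), against 0.216 and 45.0 FPKM with the control vector (−5.24) and 0.999 and 893.8 FPKM without vector (−8.81). Il6 had 19.8 FPKM in STAT6 KO and 145.3 FPKM in WT cells (−2.82), against differences of −5.51 and −6.91 in the control-vector and no-vector pairs. Il24, a cytokine gene induced by IL-4, had 16.4 FPKM in STAT6 KO and 68.3 FPKM in WT cells (−1.99), against −6.68 and −8.64. In all of them STAT6 KO was below WT in each pair, and the GATA3-vector pair had the smallest difference. Il31, a cytokine linked to itch, was level with the GATA3 vector (169.3 FPKM in STAT6 KO, 149.5 in WT; 0.18), against −3.38 and −4.77. Il9 had 447.5 FPKM in STAT6 KO and 229 FPKM in WT cells with the GATA3 vector (0.96) and at most 3.28 FPKM in the other 4 libraries. Il3 was level, at 3544 FPKM in STAT6 KO and 3400 FPKM in WT cells (0.06).

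**Figure D2:**
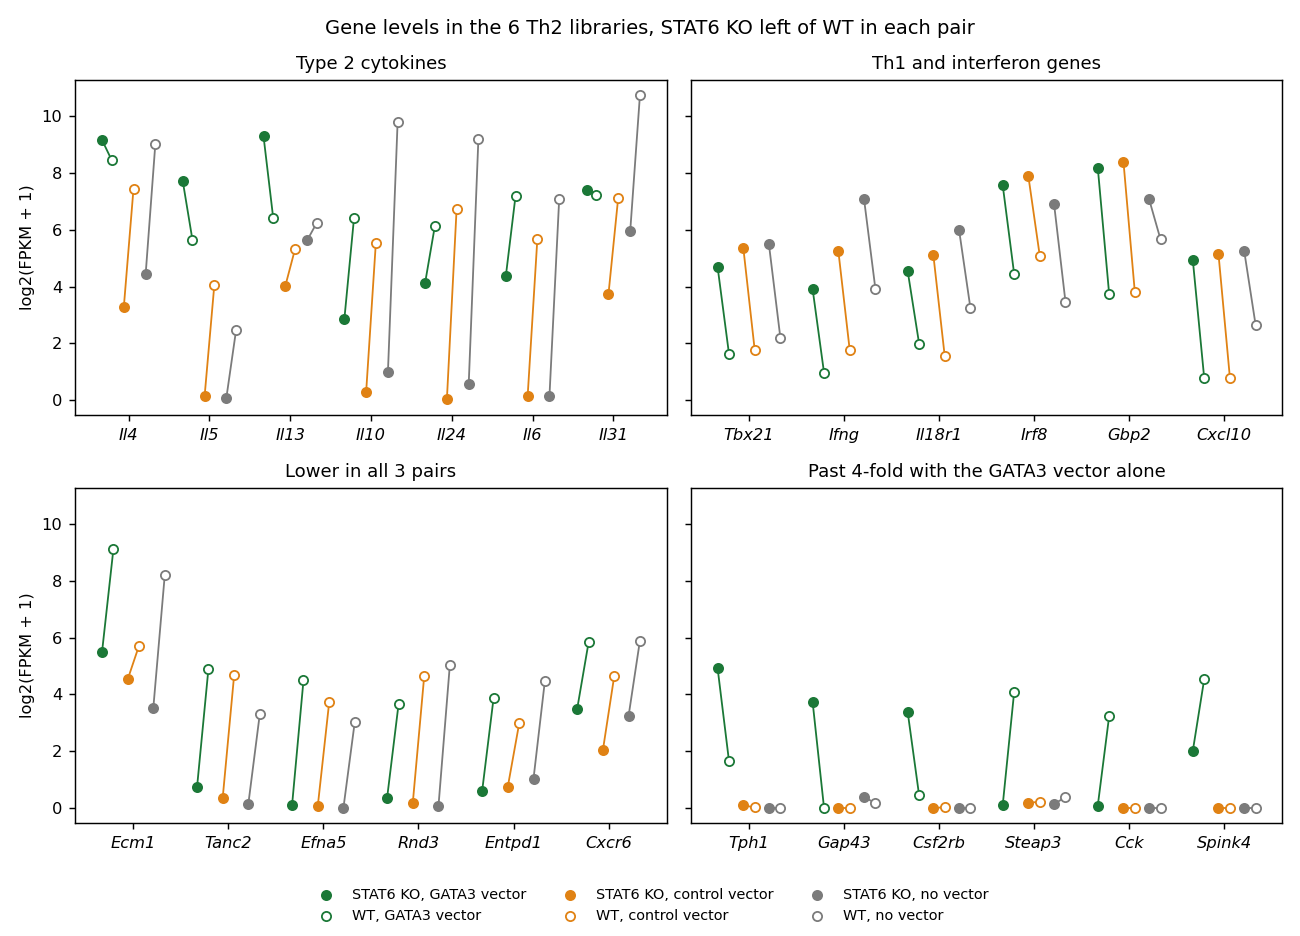
Level of 25 genes in the 6 Th2 libraries as log2(FPKM + 1). Each line joins STAT6 KO (filled, left) to WT (open, right) of 1 pair: green with the GATA3 vector, orange with the control vector, grey without vector; 1 library a point, so there are no error bars. Il13 and Il5 are higher in STAT6 KO than in WT with the GATA3 vector and lower in the other pairs, Tbx21 and Ifng are higher in STAT6 KO in all 3 pairs, and Efna5 and Tanc2 are lower in all 3.

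Of 19 single-locus genes listed as Th2 transcription factors, 2 were higher and 2 lower past 2-fold with the GATA3 vector (median −0.23), against 1 and 7 with the control vector (median −0.52). Epas1, the gene of HIF-2α, had 0.457 FPKM in STAT6 KO and 11.3 FPKM in WT cells with the GATA3 vector (−3.08), against 0.209 and 21.5 FPKM with the control vector and 0.169 and 44.6 FPKM without vector. Nfil3, an IL-4-inducible bZIP factor, had 20.2 FPKM in STAT6 KO and 46.9 FPKM in WT cells (−1.17). Its differences were −3.26 and −4.04 in the control-vector and no-vector pairs. Pparg, a lipid-sensing nuclear receptor, had 4.42 FPKM in STAT6 KO and 1.21 FPKM in WT cells with the GATA3 vector (1.30), against 0.121 and 1.44 FPKM with the control vector (−1.12) and 0.0909 and 10.1 FPKM without vector (−3.35). Rora, an orphan nuclear receptor, was higher in STAT6 KO cells in all 3 pairs, with 6.69 FPKM in STAT6 KO and 0.617 FPKM in WT cells with the GATA3 vector. Irf4 and Junb, factors that act with GATA3 and STAT6 in Th2 cells, differed by 0.19 and −0.10.

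Of 23 single-locus Th2 surface and effector genes 20 reached 3 FPKM, 9 were lower past 2-fold in STAT6 KO cells and 3 higher, with a median of −0.52. The median was −1.19 with the control vector and −2.43 without vector. Ecm1, a secreted protein that takes part in Th2 cell egress from lymph nodes, had 43.8 FPKM in STAT6 KO and 553.3 FPKM in WT cells with the GATA3 vector (−3.63), against 22.1 and 51.8 FPKM with the control vector and 10.6 and 290.6 FPKM without vector. The WT library with the GATA3 vector was thus the highest of the 6, followed by the WT library without vector. Il1rl1, the IL-33 receptor ST2, had 39.9 FPKM in STAT6 KO and 150.7 FPKM in WT cells with the GATA3 vector (−1.89), and at most 3.16 FPKM with the control vector. Tanc2 had 0.673 and 29.1 FPKM (−4.17), F2rl2, a protease-activated receptor, 4.73 and 55.5 FPKM (−3.30), and Calcrl, a receptor for CGRP and adrenomedullin, 20.4 and 124 FPKM (−2.55), each in STAT6 KO and WT cells with the GATA3 vector. These were lower in STAT6 KO than in WT cells in all 3 pairs.

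Tnfrsf8, which encodes CD30, had 0.313 FPKM in STAT6 KO and 10.5 FPKM in WT cells with the GATA3 vector (−3.13). Rnd3 had 0.291 and 11.6 FPKM (−3.28), and Entpd1, which encodes the ectonucleotidase CD39, 0.528 and 13.6 FPKM (−3.26), again in STAT6 KO and WT cells. In the STAT6 KO libraries these genes had at most 1.05 FPKM. Cyp11a1, the enzyme that starts steroid synthesis, was on the other side: 330.1 FPKM in STAT6 KO and 108.3 FPKM in WT cells with the GATA3 vector (1.60), against 0.487 and 6.81 FPKM with the control vector (−2.39) and 0.344 and 91.7 FPKM without vector (−6.11). Igfbp7, an insulin-like growth factor binding protein, was higher in STAT6 KO cells in all 3 pairs, with 12.4 FPKM in STAT6 KO and 0.126 FPKM in WT cells with the GATA3 vector. Among 22 genes listed for their response to IL-4 or STAT6, 0 were higher and 2 lower past 2-fold (Il24 and Nfil3; median −0.01), and the feedback inhibitors Socs1 (0.41) and Cish (−0.12) were within 2-fold.

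Many Th1 genes were higher in STAT6 KO cells carrying the GATA3 vector. Of 27 Th1 effector genes 22 reached 3 FPKM, 13 were higher past 2-fold and 0 lower, against 3.82% and 1.88% of all genes, and the median was 0.83. Tbx21 (chromosome 11, 96959321 to 96976645), the gene of T-bet, had 24.7 FPKM in STAT6 KO and 2.08 FPKM in WT cells with the GATA3 vector (3.06), against 40.4 and 2.43 FPKM with the control vector (3.59) and 43.7 and 3.61 FPKM without vector (3.28). Ifng, the gene of interferon-γ, had 13.9 FPKM in STAT6 KO and 0.945 FPKM in WT cells with the GATA3 vector (2.94), against 37.3 and 2.40 FPKM with the control vector (3.49) and 135.5 and 14.1 FPKM without vector (3.17). The STAT6 KO libraries lay above all WT libraries for Tbx21. For Ifng the STAT6 KO library with the GATA3 vector was the lowest STAT6 KO library and lay just under the WT library without vector.

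Both chains of the IL-18 receptor, which lets Th1 cells answer IL-18, were higher. Il18r1 had 22.3 FPKM in STAT6 KO and 2.98 FPKM in WT cells with the GATA3 vector (2.55), and Il18rap 25.7 and 2.60 FPKM in STAT6 KO and WT cells (2.89). Ifngr1, the ligand-binding chain of the interferon-γ receptor, had 50.3 FPKM in STAT6 KO and 8.24 FPKM in WT cells (2.47). Xcl1, Ccl3 and Ccl5, which encode chemokines, were higher by 2.46, 2.30 and 2.23. Stat4, which transmits the IL-12 signal, was level (0.01), and Eomes, a T-box factor related to T-bet, differed by 0.10. Gzmb, the gene of granzyme B, had 306.7 FPKM in STAT6 KO and 75.4 FPKM in WT cells with the GATA3 vector (2.01), whereas STAT6 KO was below WT in the control-vector pair (−1.06) and without vector (−2.11). Gzma, the gene of granzyme A, had 0.183 FPKM in STAT6 KO and 34.5 FPKM in WT cells with the GATA3 vector (−4.91), and was lower in STAT6 KO cells in the other pairs too.

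Interferon-inducible GTPases, which attack the vacuoles of intracellular microbes, had the highest median of the 24 lists. Of 16 single-locus genes 14 were higher past 2-fold in STAT6 KO cells and 0 lower, with Mx1 and Mx2 under 3 FPKM and a median of 3.36 over the 16. The median was 3.23 with the control vector and 1.17 without vector. Gbp2 (chromosome 3, 142283627 to 142300972) had 288.8 FPKM in STAT6 KO and 12.2 FPKM in WT cells with the GATA3 vector (4.46), against 335.8 and 12.9 FPKM with the control vector (4.60) and 133.4 and 49.6 FPKM without vector (1.41). Iigp1 had 75.7 FPKM in STAT6 KO and 1.46 FPKM in WT cells with the GATA3 vector (4.96), Gbp6 61.9 and 1.62 FPKM (4.58) and Gbp5 49.2 and 2.40 FPKM (3.88). For Gbp2 the STAT6 KO libraries lay above the WT libraries in each pair, and the WT library without vector was the highest of the WT libraries. Reads may be shared among members of the Gbp, Irg and Tgtp families, so a level of a single member is uncertain.

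Other interferon-stimulated genes followed. Of 31 genes 22 reached 3 FPKM, 17 were higher past 2-fold and 0 lower with the GATA3 vector, and all 31 had a positive difference (median 1.27). The control-vector pair had 16 higher and 0 lower (median 1.27), but without vector 3 were higher and 10 lower (median −1.12). Cxcl10, a chemokine of Th1 responses, had 29.4 FPKM in STAT6 KO and 0.706 FPKM in WT cells with the GATA3 vector (4.16), and Irf8, an interferon-inducible factor, had 187.2 and 20.8 FPKM in STAT6 KO and WT cells (3.11). Both were higher in STAT6 KO cells in the other pairs too. Ifit1, an antiviral gene, was among the 10 lower without vector: it had 4.13 FPKM in STAT6 KO and 0.141 FPKM in WT cells with the GATA3 vector (2.17), against 3.56 and 39.3 FPKM without vector (−3.15). Stat2, needed for type I interferon signals, had 27.03 FPKM in STAT6 KO and 9.87 FPKM in WT cells with the GATA3 vector (1.37). Vector use and culture day differ together between these pairs and cannot be told apart, and the Th2 vector cultures have no restimulation in their labels.

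**Figure D3:**
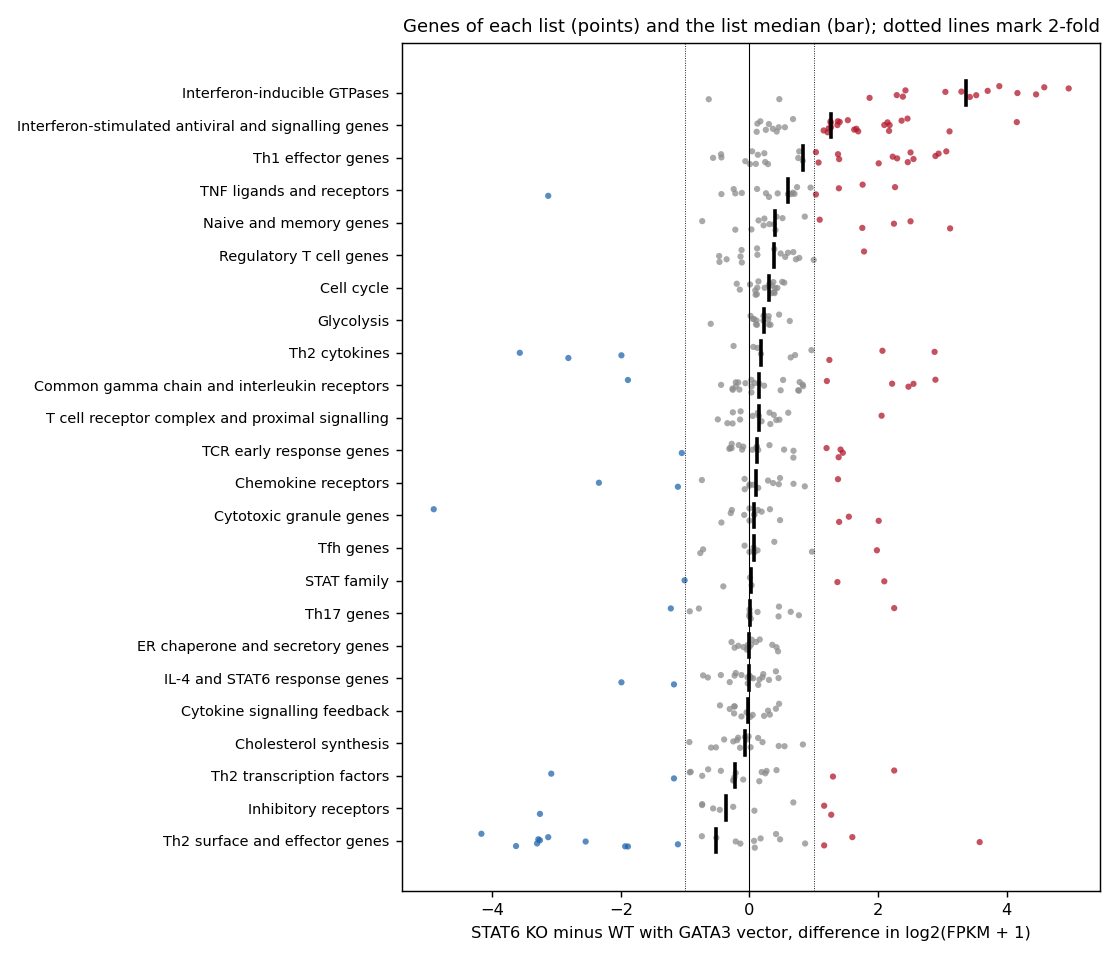
STAT6 KO minus WT difference with the GATA3 vector for the single-locus genes of 24 lists (points; red higher and blue lower past 2-fold, genes under 3 FPKM included) and the median of each list (bar). The interferon-inducible GTPases (median 3.36), the interferon-stimulated antiviral and signalling genes (1.27) and the Th1 effector genes (0.83) have positive medians, and the Th2 surface and effector genes a negative one (−0.52); the Th2 cytokines spread to both sides.

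The start regions of 4 genes from the higher side of the contrast are printed, chosen because they hold a motif searched for, as 250 bases before to 50 bases after the annotated start (300 in all; RefSeq, GRCm38.p6). Capitals mark the STAT-type motif TTCNNNGAA and the GATA-type motif AGATAA, searched on both strands. The STAT6-type motif, which has 1 more free letter between TTC and GAA, was not found in these 4. Gbp5 (chr3:142496684-142496983, plus strand) holds STAT-type motifs 245 and 52 bases before the start and a GATA-type motif 35 bases before it. Gbp7 (chr3:142530086-142530385, plus strand) holds STAT-type motifs 106 and 87 bases before the start. The first of 2 annotated Irf1 starts (chr11:53769764-53770063, plus strand) holds a STAT-type motif 90 bases before it, and Il13 (chr11:53634653-53634952, minus strand) a GATA-type motif 81 bases before its start.
Gbp5: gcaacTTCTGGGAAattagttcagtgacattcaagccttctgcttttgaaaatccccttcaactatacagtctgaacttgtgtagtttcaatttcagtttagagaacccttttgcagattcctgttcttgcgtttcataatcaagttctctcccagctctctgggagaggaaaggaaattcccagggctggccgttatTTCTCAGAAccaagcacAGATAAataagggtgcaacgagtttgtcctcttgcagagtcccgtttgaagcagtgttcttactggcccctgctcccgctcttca
Gbp7: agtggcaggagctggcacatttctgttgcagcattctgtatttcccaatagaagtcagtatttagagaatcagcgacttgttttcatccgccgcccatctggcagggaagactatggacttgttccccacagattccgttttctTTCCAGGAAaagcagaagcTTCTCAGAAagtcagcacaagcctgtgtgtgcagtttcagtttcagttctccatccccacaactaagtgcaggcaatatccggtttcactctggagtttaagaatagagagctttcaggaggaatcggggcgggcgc
Irf1: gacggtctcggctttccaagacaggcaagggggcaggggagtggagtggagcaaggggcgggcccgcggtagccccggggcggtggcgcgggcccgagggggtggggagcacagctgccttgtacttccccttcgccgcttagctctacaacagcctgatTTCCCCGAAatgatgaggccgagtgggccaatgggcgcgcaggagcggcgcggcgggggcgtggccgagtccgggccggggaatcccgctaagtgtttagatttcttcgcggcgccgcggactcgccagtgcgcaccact
Il13: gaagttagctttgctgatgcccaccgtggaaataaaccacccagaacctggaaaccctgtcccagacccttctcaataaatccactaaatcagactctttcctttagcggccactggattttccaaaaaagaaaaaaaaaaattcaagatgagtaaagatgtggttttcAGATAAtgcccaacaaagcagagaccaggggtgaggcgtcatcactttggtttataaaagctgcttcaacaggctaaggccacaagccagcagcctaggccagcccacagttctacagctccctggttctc
Of 8828 single-locus genes compared, 6370 had a promoter in the RefSeq table. The promoters of Gbp2, Igfbp7, Gzma, Efna5, Tanc2 and Ecm1 held none of the 3 motifs. Counted per gene, with a match in any of its promoters, a STAT-type motif was found in 15.7% of 229 genes higher past 2-fold in STAT6 KO cells. It was found in 5.45% of 110 genes lower, against 8.30% of all 6370. A GATA-type motif was found in 14.8% of the higher and 14.5% of the lower genes, against 7.61%. The STAT6-type motif was found in 9.17% and 6.36%, against 6.58%. Counted per promoter and not per gene, these motifs were in 8.30% (STAT-type), 11.2% (GATA-type) and 6.95% (STAT6-type) of all 32851 promoters of the table. The genes were matched on nothing else, and a match is a run of letters, not a binding site.

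The lists of growth and metabolism genes held none past 2-fold in the GATA3-vector pair, against 5.7% of all genes compared. Taken singly, each list, at 15 to 20 genes, is too short to be set apart from that share. Of 20 cell cycle genes 18 had a positive and 2 a negative difference (median 0.31, against 0.06 over all genes compared). Mki67, the proliferation marker, was at 106.1 FPKM in STAT6 KO and 78.3 FPKM in WT cells. Of 16 glycolysis genes 0 passed 2-fold with the GATA3 vector (median 0.22), and 15 had a positive difference. The control-vector pair had 2 lower (median −0.63) and the no-vector pair 6 lower (median −0.88). Pgk1, a glycolytic kinase, had 504.8 FPKM in STAT6 KO and 366.6 FPKM in WT cells with the GATA3 vector, against 193.6 and 318.2 FPKM with the control vector. Of 17 single-locus cholesterol synthesis genes 0 passed 2-fold with the GATA3 vector (median −0.07), against 5 lower with the control vector (median −0.72) and 16 lower without vector (median −1.38). Sqle, a rate-limiting enzyme of the pathway, had 17.6 FPKM in STAT6 KO and 25.8 FPKM in WT cells with the GATA3 vector, against 30.9 and 72.3 FPKM without vector. Of 15 ER chaperone and secretory genes 0 passed 2-fold with the GATA3 vector and 3 were lower without vector (median −0.73).

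Of 17 genes of naive and memory cells 5 were higher past 2-fold in STAT6 KO cells and 0 lower (median 0.40), against 3.82% and 1.88% of all genes. S1pr1, the receptor for exit from lymph nodes, had 27.5 FPKM in STAT6 KO and 5.01 FPKM in WT cells with the GATA3 vector (2.25). Among chemokine receptors, Cxcr3, which marks Th1 cells, had 13.1 FPKM in STAT6 KO and 4.43 FPKM in WT cells (1.38). Cxcr6, the receptor for CXCL16, had 10.3 and 56.4 FPKM (−2.34) and Ccr4, which marks Th2 cells, 17.3 and 38.6 FPKM (−1.11). Of 19 TNF ligands and receptors 4 were higher and 1, Tnfrsf8, lower (median 0.60), against the same shares of all genes. Tnfrsf25, the receptor DR3, had 8.81 FPKM in STAT6 KO and 1.04 FPKM in WT cells (2.26).

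Foxp3, the factor of regulatory T cells, was at 3.25 FPKM in STAT6 KO and 0.238 FPKM in WT cells (1.78). Of the 17 regulatory T cell genes it was the 1 past 2-fold, with none lower and a list median of 0.39. Il2 was at 1729 FPKM in STAT6 KO and 661.2 FPKM in WT cells (1.39), and among the 21 early response genes to the T cell receptor 4 were higher and 1 lower past 2-fold (median 0.11). Of 17 genes of the T cell receptor complex and its proximal signalling, Txk, a Tec family kinase, was the 1 past 2-fold, at 18.02 FPKM in STAT6 KO and 3.58 FPKM in WT cells (2.05). For Foxp3 and Txk alike, 1 gene of 17 is near the 5.7% of all genes compared that passed 2-fold. The remaining lists had medians between −0.36 (inhibitory receptors) and 0.15 (interleukin receptors).

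The GATA3-vector pair was set beside the control-vector and no-vector pairs, with which it shares no library. Of the 339 genes higher past 2-fold with the GATA3 vector, 194 were also higher in the control-vector pair, 120 in the no-vector pair and 98 in both. Of the 167 lower genes the numbers were 60, 81 and 56. In neither other pair did 102 of the higher and 77 of the lower genes pass 2-fold in either direction. Over all genes compared, 3.34% were higher and 2.17% lower past 2-fold in the control-vector pair, and 3.89% and 5.21% in the no-vector pair. A gene near 0 in both libraries of a pair cannot pass 2-fold there on this scale. Over the 8884 genes, Pearson's r of the differences was 0.572 with the control-vector pair and 0.330 with the no-vector pair (Spearman's rank correlation 0.543 and 0.263). These values are across genes, which are not independent, and the pairs share strain, Th2 culture and processing. The GATA3-vector and control-vector pairs also share medium, culture day and virus.

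In the other direction, 54 genes were lower past 4-fold in STAT6 KO cells in both the control-vector and the no-vector pair. With the GATA3 vector 17 of them were again lower past 4-fold, 33 past 2-fold, and 18 were within 2-fold, 2 of these under 3 FPKM in both GATA3-vector libraries. Of the 54, 49 reached 3 FPKM there. Of 28 genes higher past 4-fold in both, 15 were again higher past 4-fold, 25 past 2-fold, and 3 were within 2-fold, 1 of these under 3 FPKM in both; 25 of the 28 reached 3 FPKM. Asb2, a ubiquitin ligase adaptor, had the smallest difference among the genes of the 54 that reached 3 FPKM: 54.8 FPKM in STAT6 KO and 50.3 FPKM in WT cells with the GATA3 vector (0.12), against 0.275 and 17.2 FPKM with the control vector and 0.182 and 27.9 FPKM without vector. Penk, which encodes proenkephalin, had 252.9 and 224.2 FPKM in STAT6 KO and WT cells with the GATA3 vector (0.17), against 33.1 and 144.3 FPKM with the control vector. Htr1b, a serotonin receptor, had 25.4 FPKM in STAT6 KO and 33.4 FPKM in WT cells (−0.38), against −4.21 and −5.20 in the other pairs. Mt1, Il1a and Fam46a were likewise low in STAT6 KO cells without ectopic GATA3 and within 2-fold with it. Nsg2 was the reverse, higher in STAT6 KO cells by 2.37 and 2.91 in the other pairs and by 0.22 with the GATA3 vector.

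Some genes turned round. Among all genes compared, 2.17% were lower past 2-fold in the control-vector pair and 5.21% in the no-vector pair. Of the 339 genes higher past 2-fold with the GATA3 vector, 7 were lower in the control-vector pair, which is near that share. In the no-vector pair 35 were lower past 2-fold, and 5 were lower in both. The 5 were Il5, Gzmb, Cyp11a1, Pparg and Ramp3, a co-receptor of the calcitonin family with 74.8 FPKM in STAT6 KO and 31.3 FPKM in WT cells with the GATA3 vector (1.23), against 8.43 and 50.2 FPKM with the control vector (−2.44). The 1 gene that turned the other way in both pairs was Lypd6b, at 1.12 FPKM in STAT6 KO and 4.93 FPKM in WT cells (−1.49).

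**Figure D4:**
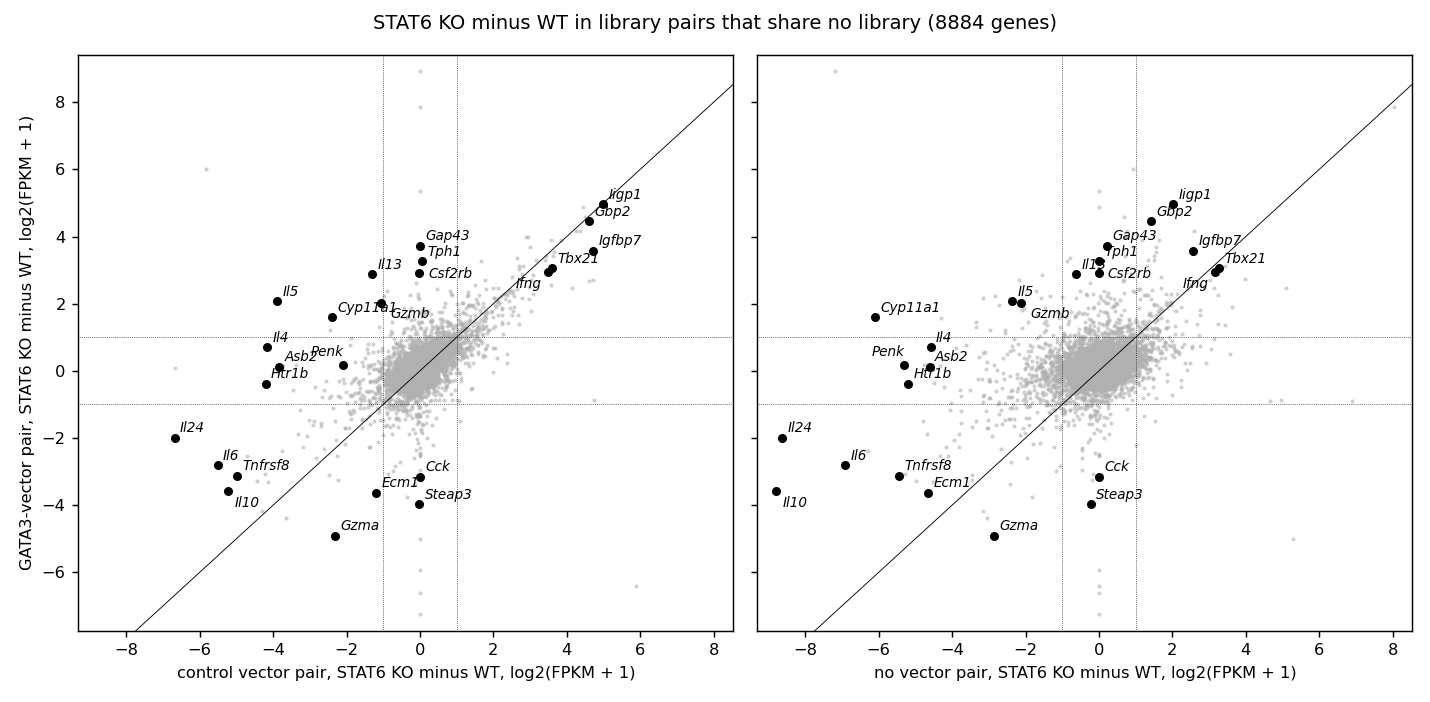
STAT6 KO minus WT difference with the GATA3 vector (vertical axis) against that with the control vector (left) and without vector (right), in log2(FPKM + 1) for 8884 genes; black points are named genes, dotted lines mark 2-fold and the solid line equal differences. Tbx21, Ifng and Iigp1 lie high in both panels, Il10, Il24 and Il6 low in both, and Il5, Il13 and Cyp11a1 change side. Gap43, Tph1, Steap3 and Cck differ with the GATA3 vector and were near 0 FPKM in all libraries of the other pairs.

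A further 7 genes were higher and 15 lower past 4-fold with the GATA3 vector while within 0.5 in both other pairs. Tph1 (chromosome 7, 53902501 to 53927907), the first enzyme of serotonin synthesis, had 29.3 FPKM in STAT6 KO and 2.14 FPKM in WT cells with the GATA3 vector (3.27), and at most 0.0691 FPKM in the other 4 libraries. Gap43, a neuronal growth-associated protein, had 12.2 FPKM in STAT6 KO cells carrying the GATA3 vector and was listed at 0 in WT cells (3.72). Csf2rb, the shared receptor chain for IL-3, IL-5 and GM-CSF, had 9.40 FPKM in STAT6 KO and 0.369 FPKM in WT cells (2.93), and Eepd1 had 19.0 and 2.25 FPKM (2.63). Among the lower genes, Steap3, an iron-reducing enzyme, had 0.0854 FPKM in STAT6 KO and 15.9 FPKM in WT cells (−3.96). Cck, which encodes the peptide hormone cholecystokinin, had 0.0644 and 8.49 FPKM (−3.16) and Spink4, a protease inhibitor, 3.05 and 22.3 FPKM (−2.52), in STAT6 KO and WT cells with the GATA3 vector. Cck and Spink4 were listed at 0 in all 4 libraries without ectopic GATA3. All of these rest on the 2 GATA3-vector libraries. In the other 4 Th2 libraries the genes named here were near 0, with at most 0.563 FPKM (Eepd1 in WT cells with the control vector). At such levels log2(FPKM + 1) can hardly differ by 0.5, so a STAT6 KO difference could hardly show in those pairs.

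With no replicate in either group, a limma model was fitted to 12 RNA libraries, Th1 libraries included (3 residual degrees of freedom). Its terms were lineage, vector culture, knockouts, vectors and their interactions. Th1 vector cultures, restimulated for 2 h, and Th2 vector cultures shared 1 vector-culture term. The GATA3-vector libraries are fitted exactly, so the spread came from departures from additivity in other libraries. A gene near 0 there, as Tph1 and Spink4 were in the other Th2 libraries, has a small error for that reason. Its call does not measure variation at its level with the GATA3 vector. Of 10710 genes tested, 5 rose (0.0467%) and 8 fell (0.0747%) in STAT6 KO cells carrying the GATA3 vector at an adjusted p under 0.05, and 750 had an unadjusted p under 0.05. The genes that rose were Tph1 (3.27 ± 0.20 SE, adjusted p = 0.00826), Tbx21 (3.06 ± 0.24, 0.0213), Eepd1 (2.63), Ly6c1, a surface antigen (2.50), and Rora (2.25). The genes that fell were Efna5, which encodes the Eph receptor ligand ephrin-A5 (−4.38 ± 0.28, 0.00826), Rnd3 (−3.28 ± 0.31, 0.0252), Tnfrsf8 (−3.13 ± 0.28, 0.0216), Stbd1 (−2.995), Tmem108 (−2.61), Spink4 (−2.52), Stx3 (−1.998) and Mir365-2. The value of Mir365-2 rests on a precursor of a small RNA, at 59.5 FPKM in 1 library with a Cufflinks interval of 0 to 178.4, and at 0 in the other Th2 libraries. Il13 (2.88 ± 1.09, adjusted p = 0.622), Il5 (2.07 ± 0.54, 0.316), Ifng (2.94 ± 0.41, 0.0802), Gbp2 (4.46 ± 1.005, 0.223), Ecm1 (−3.63 ± 1.10, 0.429) and Il10 (−3.57 ± 1.04, 0.395) did not pass. On simulated data of the same design 78 of 100 genes changed by 2 were called, 3 of 100 changed by 1, and 5 unchanged genes.

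The same model tested whether the STAT6 KO difference itself depended on the GATA3 vector. Tph1 (3.24 ± 0.25, adjusted p = 0.0394) and Mir365-2 passed, 0.00934% of genes in each direction, and 461 genes had an unadjusted p under 0.05. Il5 (5.20 ± 0.66, adjusted p = 0.141), Il4 (5.08 ± 1.06, 0.533) and Il13 (3.83 ± 1.34, adjusted p = 1) did not. The Tph1 call was lost with pseudocount 0.1, with a minimum of 3 FPKM in 2 libraries (which leaves Tph1 untested), with the 6 Th2 libraries alone, and without the STAT4 KO Th1, STAT6 KO Th2, STAT4 KO Th1 control-vector or STAT6 KO Th2 control-vector library, where 0 genes were called higher. In simulated data 43 of 100 genes with an interaction of 2 were called, 0 of 100 with an interaction of 1, and 5 unchanged genes.

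Averaged over the 3 pairs (10438 genes, culture as block), 132 genes rose (1.26%) and 47 fell (0.45%) in STAT6 KO cells by limma. Of these 179 genes, 122 were past 2-fold the same way with the GATA3 vector, 92 higher and 30 lower. This overlap is partly built in, because the GATA3-vector pair is 1 of the 3 averaged. In that pair 3.82% of all genes compared were higher and 1.88% lower past 2-fold. Among Th1 effector genes 6 of 27 rose and 0 fell, among them Tbx21 (3.31 ± 0.14, adjusted p = 0.0135), Ifng (3.20 ± 0.14, 0.0135) and Il18r1 (2.96 ± 0.22, 0.0271). Of the interferon-inducible GTPases 2 of 14 tested rose, Irgm2 (2.50 ± 0.10, 0.0135) and Igtp (2.50 ± 0.21, 0.0301). Iigp1 (3.99 ± 0.66, adjusted p = 0.0692), Gbp5 (0.0653), Gbp2 (0.0937) and Gbp6 (0.142) did not pass, and none of 15 GTPases passed in the contrast with the GATA3 vector alone. Of 26 other interferon-stimulated genes tested 3 rose and 0 fell. The factors Irf8 (3.12 ± 0.15, 0.0149) and Irf1 (2.57 ± 0.22, 0.0301) rose, as did Cxcl10 (3.70 ± 0.38, 0.0377). Of 23 Th2 surface and effector genes 7 fell and 1 rose, with Tanc2 (−3.87 ± 0.26, 0.0232), F2rl2 (−3.99 ± 0.26, 0.0212) and Entpd1 (−2.98 ± 0.27, 0.0325) among those that fell. None of 12 type 2 cytokine genes tested was called in either direction, and Il10 had −5.87 ± 1.02 (adjusted p = 0.0759). Without the control-vector pair 1 gene rose and 0 fell, without the GATA3-vector pair 84 rose and 91 fell, and without the no-vector pair 386 rose and 118 fell. Nothing in the labels ties the libraries to separate mice or cultures, so the p-values cover the spread among these libraries, which may be technical.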

How the data were processed

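Libraries made from total RNA with a TruSeq kit were sequenced as single reads of 100 cycles, per the labels' protocols. The deposited gene tables hold FPKM values with bounds and a status, per the file headers; the submitters' processing notes name TopHat, Cufflinks and build mm9, with versions not given in the sources used here. For single reads this is the same quantity as RPKM, the unit the test design assumed. Depth was estimated from the width of the Cufflinks bounds, which cover counting error only. Entries failed in any library (118) were left out, and 56 genes compared that had several loci were not named. Differences past 2-fold on log2(FPKM + 1) are a description with no test.

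Tests were run in R 4.3.3 with limma 3.58.1 (lmFit, eBayes with trend) and Benjamini-Hochberg adjustment over all genes at 1 FPKM or more in at least 2 libraries. The 12-library model left out WT Th1 replicate 2 and T-bet KO Th1, which earlier results showed to stand apart. The models were tested on simulated data with normal noise of the fitted size in every library. For the fit over the 3 pairs, 83 of 100 genes changed by 1, 99 of 100 changed by 2 and 17 unchanged genes were called. Named genes were among single-locus genes other than predicted and small RNA genes, the 12 highest and 12 lowest, up to 4 past 2-fold per list, and those that kept, lost or turned the difference of the other pairs; other genes were named after their values were seen. The members and lists were chosen with earlier results of these data known. Alternatives changed the pseudocount, filter, scaling or libraries. ChIP samples were not analysed here.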

Additional observations from a re-analysis of the deposited data

Results flagged for a closer look

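The STAT6 KO difference of 2 genes differed with the GATA3 vector by limma's interaction test in the 12-library model. Tph1 had an interaction of 3.24 (log2, adjusted p = 0.0394): STAT6 KO exceeded WT by 3.27 with the GATA3 vector, against 0.07 with the control vector, and Tph1 was listed at 0 in both libraries without vector. Mir365-2 had an interaction of −5.92 (adjusted p = 0.0027). It was listed at 0 FPKM in STAT6 KO and at 59.5 FPKM in WT cells with the GATA3 vector, with a Cufflinks interval from 0 to 178.4 in the WT library, and at 0 in the other 4 Th2 libraries. Neither has a replicate. Both were near 0 in the other 4 Th2 libraries, and the model takes no spread from the GATA3-vector libraries. No gene was called higher, Tph1 included, with pseudocount 0.1, at 3 FPKM in 2 libraries (which leaves Tph1 untested), with the 6 Th2 libraries alone or in 4 of the fits with 1 library left out (without STAT4 KO Th1, STAT6 KO Th2, STAT4 KO Th1 control vector or STAT6 KO Th2 control vector), and no gene was called lower, Mir365-2 included, with the 6 Th2 libraries alone or without the STAT6 KO Th2 control-vector library.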

How the results depend on the processing

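Past 2-fold, 339 genes were higher and 167 lower in STAT6 KO cells carrying the GATA3 vector; a pseudocount of 5 gave 163 and 87, and a minimum of 10 FPKM gave 211 and 104. Pseudocount 0.1, other filters and 3 scalings moved both counts by less than 1.5 times (286 to 432 higher, 167 to 219 lower), and no named gene past 2-fold changed sign. In the 12-library model, 5 genes rose and 8 fell; the counts were 1 and 2 with pseudocount 0.1, 2 and 2 at 3 FPKM in 2 libraries, 280 and 385 with no filter, 15 and 19 after quantile normalization, 5 and 13 with all 14 libraries, and 0 and 0 with the 6 Th2 libraries. Leaving out 1 library gave 0 to 30 higher and 2 to 23 lower. For the interaction (1 higher, 1 lower) the counts were 0 and 1 with pseudocount 0.1 and at 3 FPKM, 149 and 188 with no filter, 4 and 1 after quantile normalization, 1 and 4 with 14 libraries, 0 and 0 with the 6 Th2 libraries, and 0 to 31 and 0 to 3 with 1 library left out. Over the 3 pairs (132 and 47), no filter gave 0 and 0, quantile normalization 135 and 80, and leaving out a pair 1 to 386 and 0 to 118. The cause was not tested. No paired analysis was possible by replicate number because each group compared holds 1 library; the fit over the 3 pairs blocks on culture instead. With 1 library a side, variation between cultures cannot be told apart from genotype. The limma calls move with the filter and with single libraries, and the counts past 2-fold leave out genes under 3 FPKM in both libraries.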
